A study of Homo sapiens with 6 samples.

Results

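The genes described here are the 10 that encode the NF-kB subunits and their main feedback inhibitors: NFKB1, NFKB2, RELA, RELB and REL, and NFKBIA, NFKBIB, NFKBIE, NFKBIZ and TNFAIP3. They were chosen by name, with earlier results of these data known, and all 10 were found among the 45372 gene IDs of the deposited tables. The cells were human umbilical vein endothelial cells (HUVECs), primary cells from the vein of the umbilical cord, labelled as wild type. One group (control, 3 libraries) received a non-specific control RNA and the other (mimic, 3 libraries) a synthetic mimic of the microRNA miR-409-3p, each at 50 nM by lipid transfection, and RNA was taken at 48 h. Both groups were therefore transfected, the sample titles call the cells of both groups not treated, and no agent that activates NF-kB is named for either group. The labels number biological replicates 1 to 3 in each group but do not say whether these were separate cultures or donors, and the design text says that 4 technical replicates were pooled per RNA sample, so p-values measure the spread between these samples, which may be technical.

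NF-kB proteins bind DNA in pairs of subunits. In resting cells the IkB proteins hold most of them in the cytoplasm, and kinases activated by cytokine or Toll-like receptors mark IkB for destruction, which frees the subunits to enter the nucleus. NF-kB then induces several of its own inhibitors, so transcripts such as NFKBIA and TNFAIP3 rise soon after activation and close a feedback loop, while in endothelium other targets recruit leukocytes to the vessel wall.

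All 10 endothelial marker genes examined, among them PECAM1, CDH5 and VWF, were at 96.8 TPM or more in every library (TPM is a transcript level: reads per gene length, scaled to the same total in every library). Of 12 leukocyte markers, 7 including PTPRC were at 0 in every library, and the summed level of the list was 0.307 to 0.425 TPM in control and 0.334 to 0.613 TPM in mimic libraries. Smooth muscle markers summed to at most 0.295 TPM, fibroblast markers to 12.9 to 16.1 TPM in control and 13.0 to 16.4 TPM in mimic libraries, and epithelial markers, mostly KRT18, to 290.2 to 299.6 and 248.6 to 310.1 TPM. TPM keeps no depth, but low values fell on whole reads per exon length for 78.7% to 82.2% of low genes (within 0.05 reads), which implies 29.9 to 35.9 M assigned reads per library. In bulk RNA, fewer cells carrying a transcript and less of it per cell cannot be told apart.

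The start regions of the inhibitors are shown first, because NF-kB acts on several of these genes through DNA sites of its own. Of the 10 genes, 8 had an entry in the RefSeq promoter table (GRCh38.p14, 250 bases before to 50 after the annotated start). RELB and NFKBIE had no entry and were not searched. Windows with a match to the kB motif, the 10-base NF-kB consensus searched on both strands, numbered 5 of 8. These were the windows of NFKBIA, NFKBIZ, TNFAIP3, NFKB1 and REL, and the windows of NFKB2, RELA and NFKBIB held none. The RELA window (chr11:65663808-65664107, minus) lay wholly upstream of the start at 65663094 in the annotation used for gene positions. The bases around that RELA start were not searched, so whether a match lies there is not known. The motif was present in 10.8% of all 27305 windows and in 13.0% of the 10278 windows of tested genes. The windows below are on the strand of each gene, chr3:101827740-101828039 (plus) for NFKBIZ, chr14:35404700-35404999 (minus) for NFKBIA, chr6:137867009-137867308 (plus) for TNFAIP3 and chr4:102501109-102501408 (plus) for NFKB1, with kB matches in capitals.
NFKBIZ: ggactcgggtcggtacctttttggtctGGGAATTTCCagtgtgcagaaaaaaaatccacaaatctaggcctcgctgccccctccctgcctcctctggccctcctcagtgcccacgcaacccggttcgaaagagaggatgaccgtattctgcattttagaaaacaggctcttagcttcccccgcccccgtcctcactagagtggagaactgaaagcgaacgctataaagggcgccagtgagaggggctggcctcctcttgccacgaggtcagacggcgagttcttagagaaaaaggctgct
NFKBIA: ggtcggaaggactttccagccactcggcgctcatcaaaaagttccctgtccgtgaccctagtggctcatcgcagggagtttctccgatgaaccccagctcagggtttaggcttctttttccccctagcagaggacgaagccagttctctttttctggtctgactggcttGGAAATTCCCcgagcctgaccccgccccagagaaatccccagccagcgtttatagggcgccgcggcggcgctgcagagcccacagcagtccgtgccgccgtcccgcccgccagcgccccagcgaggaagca
TNFAIP3: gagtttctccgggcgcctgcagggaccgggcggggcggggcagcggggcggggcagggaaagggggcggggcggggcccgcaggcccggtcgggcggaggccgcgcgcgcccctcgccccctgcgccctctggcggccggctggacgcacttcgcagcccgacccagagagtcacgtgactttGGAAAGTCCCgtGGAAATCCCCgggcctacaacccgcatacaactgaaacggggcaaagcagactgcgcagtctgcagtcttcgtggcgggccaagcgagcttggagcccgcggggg
NFKB1: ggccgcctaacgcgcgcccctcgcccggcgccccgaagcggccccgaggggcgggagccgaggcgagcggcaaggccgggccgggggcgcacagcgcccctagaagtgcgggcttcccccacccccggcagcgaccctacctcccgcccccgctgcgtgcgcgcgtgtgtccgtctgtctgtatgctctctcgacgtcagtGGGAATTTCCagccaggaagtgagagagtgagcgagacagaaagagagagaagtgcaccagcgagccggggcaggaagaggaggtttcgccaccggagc
NFKBIZ and NFKB1 carried the same 10 bases, GGGAATTTCC, at position -223 in NFKBIZ and at position -49 in NFKB1 relative to the start. NFKBIA held 1 match at position -81 and TNFAIP3 held 2, at -67 and -55, and the window of REL held 2 that overlap, at -47 and -46. These matches describe the letters only. They were found in the 3 inhibitor genes that were higher in every mimic library and in 2 subunit genes whose values overlapped between the groups. NFKBIB was the only other inhibitor gene searched, since NFKBIE had no window.

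The microRNA itself is shown because it can pair with transcripts through its seed, bases 2 to 8, in capitals (RefSeq, GRCh38.p14, chr14:101065346-101065367, plus strand).
miR-409-3p: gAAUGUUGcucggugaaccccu
No transcript of the 10 genes carried the full 7-base match CAACATT in its longest 3′ UTR in GENCODE 29, a match that 14.4% of 11980 tested protein-coding genes had. The 6-base match AACATT occurred in 3 of the 10, NFKBIZ (4 copies), REL (6 copies) and TNFAIP3 (1 copy), against 46.9% of genes. With an A after it (AACATTA, class 7mer-A1, in 16.1% of genes) it occurred 2 times in NFKBIZ and 3 times in REL. The 2 sites in NFKBIZ and the first of the 3 in REL read as follows, with the 7mer-A1 site in capitals. Its last A lies opposite the first base of the microRNA, a g, and does not pair with it.
NFKBIZ, UTR position 311: tttgtggcacaaAACATTAttaatatagct
NFKBIZ, UTR position 1325: taacattctattAACATTAttttgcttgcc
REL, UTR position 1852: aaatgtttattgAACATTAaaagtattact
The coding sequence of NFKBIZ held a further 2 copies of AACATT and those of the other 9 genes held 0. NFKBIZ was higher in mimic cells, and the values of REL overlapped between groups. Whether the microRNA acts on these sites was not tested.

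Of the subunits, RELA, which carries the main transactivation domain of the common NF-kB pair, was the most abundant. It measured 71.6, 75.5 and 70.7 TPM in control libraries 1 to 3 and 70.9, 72.4 and 75.9 TPM in mimic libraries 1 to 3. NFKB1, its usual partner, measured 43.9, 48.2 and 45.4 TPM in control and 42.2, 45.2 and 44.0 TPM in mimic libraries. For both genes the groups overlapped.
NFKB2, made as a precursor that is cut in the alternative NF-kB pathway, measured 17.5, 18.0 and 17.3 TPM in control and 17.5, 15.9 and 17.7 TPM in mimic libraries, with mimic library 2 the lowest of the 6. RELB, the partner of NFKB2 in that pathway, measured 8.20, 9.48 and 9.04 TPM in control and 8.23, 8.58 and 11.0 TPM in mimic libraries, with mimic library 3 the highest. REL, a subunit best known from lymphocytes, measured 5.75, 7.08 and 8.36 TPM in control and 8.22, 7.18 and 6.90 TPM in mimic libraries, so all 3 mimic values lay inside the control range.

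None of the 5 subunits passed limma with Benjamini-Hochberg adjustment over 13680 tested genes at 0.05. Their log2 fold changes (mimic minus control, on log2(TPM + 1)) ran from -0.06 for NFKB1 to 0.07 for REL, with a median of 0.0087 against -0.017 over all tested genes. None of the 5 reached an unadjusted p under 0.05 in either direction (0 and 0), against 3.05% of tested genes upward and 7.64% downward. The 95% limma intervals were -0.11 to 0.13 for RELA, -0.20 to 0.07 for NFKB1, -0.20 to 0.10 for NFKB2, -0.21 to 0.30 for RELB and -0.22 to 0.36 for REL. The data thus bound a change of RELA more narrowly than one of REL or RELB, whose intervals are wider. REL shares 43.3% of its exon bases with an annotated RNA on the same strand (AC010733.2), so its level is uncertain.

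**Figure D1:**
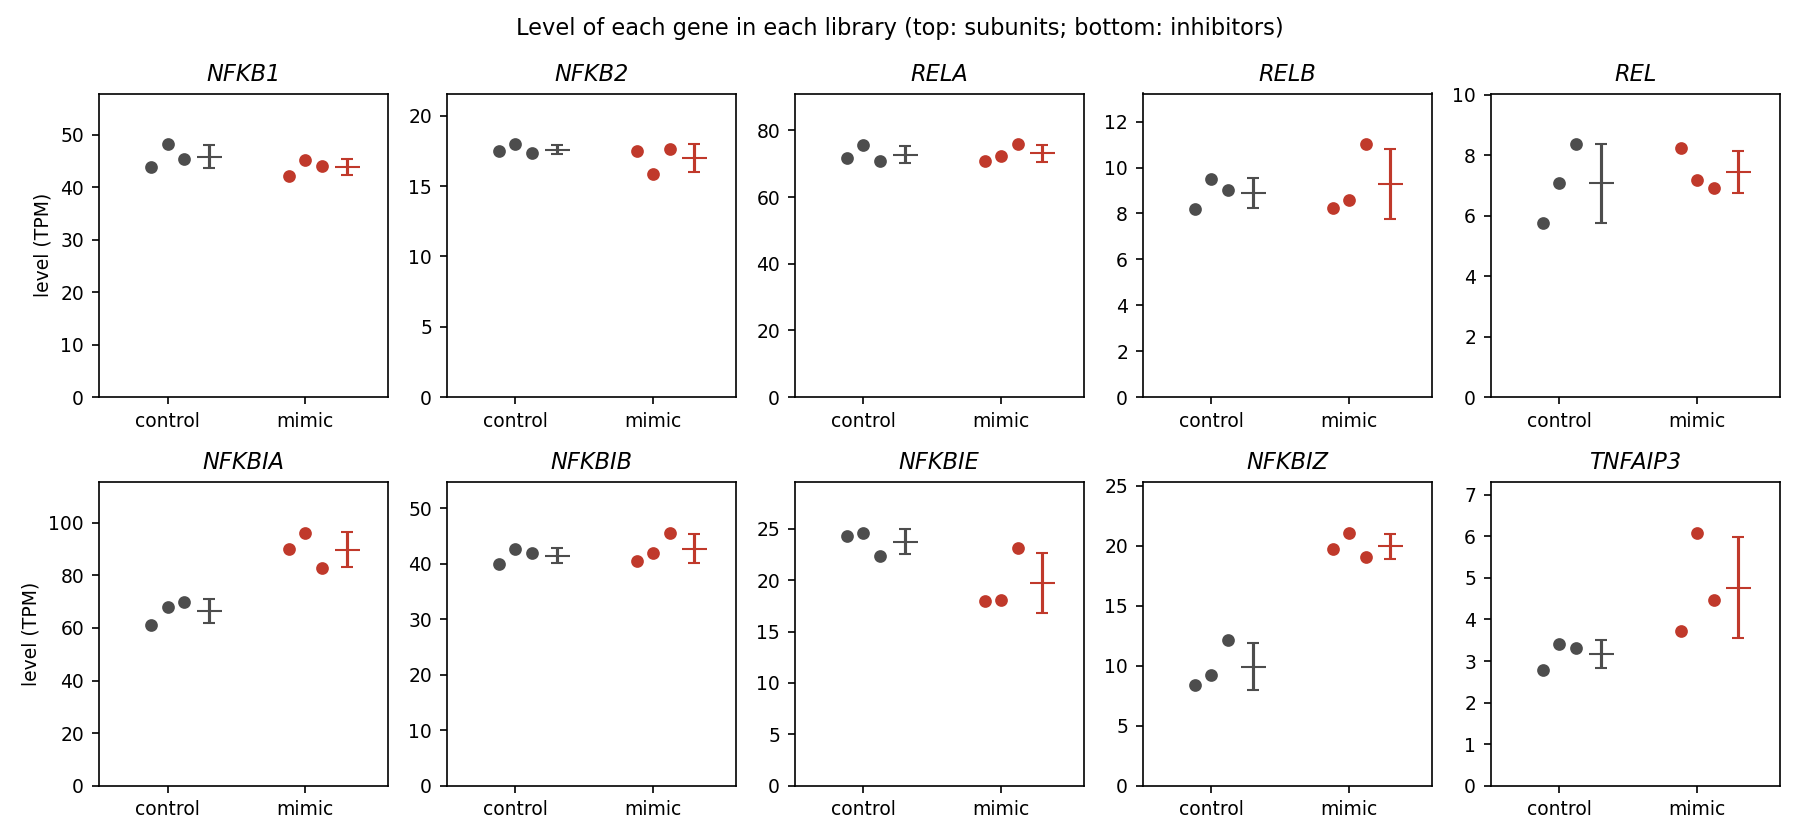
Level in TPM (vertical axes, each from 0) of the 10 genes in the 3 control (grey) and 3 mimic (red) libraries, replicates 1 to 3 from left to right, with mean ± SD beside the points. The subunits in the top row overlap between groups, while NFKBIA, NFKBIZ and TNFAIP3 in the bottom row are higher in every mimic library and NFKBIE is lower in mimic libraries 1 and 2.

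Among the inhibitors NFKBIZ rose. It encodes IkB-zeta, an inducible nuclear IkB protein that binds NFKB1 products and is needed for transcription of a subset of NF-kB targets, so it is an inhibitor by family and can also act as a coactivator. NFKBIZ (ENSG00000144802, chr3:101827991-101861022, plus strand, GRCh38) measured 8.38, 9.23 and 12.1 TPM in control and 19.7, 21.1 and 19.1 TPM in mimic libraries. The lowest mimic library was 19.1 TPM and the highest control library 12.1 TPM, so the groups lay apart, and the mean was 2.01 times the control mean (adjusted p = 0.0169, limma with Benjamini-Hochberg; log2 fold change 0.95 ± 0.12 SE, 95% interval 0.68 to 1.23). The control values varied more (CV 19.7%) than the mimic values (CV 5.22%), because control library 3 was the highest of the controls. The level rests on an estimated 411 to 1108 reads per library. The adjusted p of NFKBIZ was 0.0726 without control library 1, 0.0776 without control library 2 and 0.0719 without mimic library 1, and it was 0.147 with no filter on low values and 0.0550 with an untrended prior. Over 15 other settings the fold change ran from 0.75 to 1.09 and passed in 9.

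NFKBIA encodes IkB-alpha, the classic IkB protein, which NF-kB induces and which carries RELA pairs back out of the nucleus. NFKBIA (ENSG00000100906, chr14:35401511-35404749, minus strand) measured 61.2, 67.8 and 69.9 TPM in control and 90.1, 96.3 and 82.9 TPM in mimic libraries. Every mimic library was above every control library, with a mean 35.4% higher. By limma with Benjamini-Hochberg adjustment it lay just short of the threshold (adjusted p = 0.0545, log2 fold change 0.43, SE 0.07, 95% interval 0.26 to 0.60). NFKBIA passed in 5 of 15 other settings. These were a filter of 5 TPM (limma adjusted p = 0.0270), median-of-ratios scaling (0.0286), quantile scaling (0.0377), a robust prior (0.0292) and leaving out mimic library 3 (0.0387). It missed in the rest, among them no filter on low values (0.210), leaving out mimic library 1 (0.192) and the replicate block (0.161). Its fold change stayed between 0.38 and 0.49 in all 15 other settings.

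TNFAIP3 encodes A20, a ubiquitin-editing enzyme that NF-kB induces and that shuts off signalling upstream of the IkB kinases. TNFAIP3 (ENSG00000118503, chr6:137867188-137883312, plus strand) was the least abundant of the 10. It measured 2.79, 3.42 and 3.31 TPM in control and 3.72, 6.09 and 4.48 TPM in mimic libraries. The groups did not overlap, but the gap between control library 2 and mimic library 1 was small and the mimic values spread widely (CV 25.4%). The log2 fold change of 0.45 (SE 0.16, 95% interval 0.09 to 0.81) missed the threshold (adjusted p = 0.334, limma with Benjamini-Hochberg), as it did in all 14 other settings that tested it. The estimated reads for TNFAIP3 were 116.9 to 274.0 per library.

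The other IkB genes were not higher in every mimic library. NFKBIE encodes IkB-epsilon, an inducible cytoplasmic inhibitor, and measured 24.3, 24.6 and 22.4 TPM in control and 18.0, 18.0 and 23.1 TPM in mimic libraries. Mimic libraries 1 and 2 were below every control library, whereas mimic library 3 was inside the control range. The log2 fold change was -0.27 (SE 0.10, 95% interval -0.49 to -0.04, limma with Benjamini-Hochberg, adjusted p = 0.372), and without mimic library 3 it was -0.38 with an adjusted p of 0.0766. NFKBIB encodes IkB-beta, which is not strongly induced by NF-kB, and measured 39.9, 42.6 and 41.8 TPM in control and 40.5, 42.0 and 45.6 TPM in mimic libraries. Its groups overlapped, with a log2 fold change of 0.04 and a 95% interval of -0.10 to 0.18. NFKBIB shares 40 exon bases, 1.72% of its exon length, with SIRT2 on the opposite strand.

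**Figure D2:**
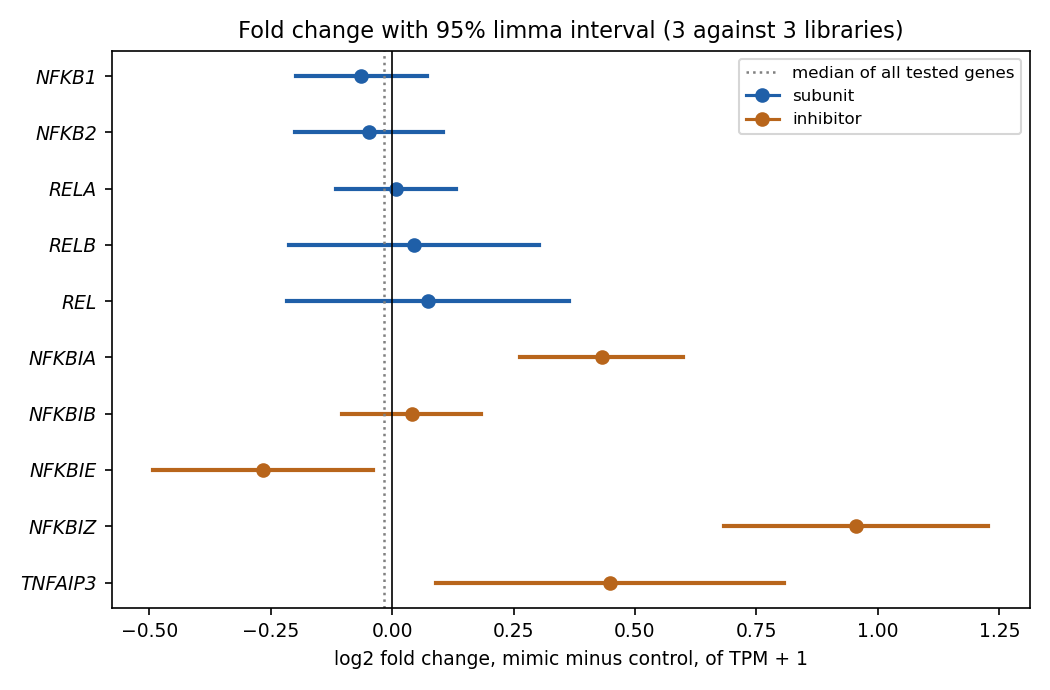
Log2 fold change of TPM + 1, mimic minus control (horizontal axis), for the 5 subunits (blue) and 5 inhibitors (brown) with 95% limma intervals from 3 against 3 libraries. The intervals of the subunits and of NFKBIB include 0, those of NFKBIA, NFKBIZ and TNFAIP3 lie above 0 and that of NFKBIE lies below it, before adjustment for 13680 genes.

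Over the 10 genes, 1 passed the adjusted threshold as higher (NFKBIZ), against 0.132% of tested genes, and 0 as lower, against 0.3%. Before adjustment, p was under 0.05 with a higher level for 3 (NFKBIZ, NFKBIA and TNFAIP3), against 3.05% of tested genes, and with a lower level for 1 (NFKBIE), against 7.64%. Every mimic library lay above every control library for the same 3 genes, against 5.16% of tested genes, and below for 0, against 10.5%. The median log2 fold change was 0.43 for the 5 inhibitors (the value of NFKBIA), 0.04 for all 10 genes and -0.017 for all tested genes. The 10 genes were chosen with earlier results of these data known, so these shares describe them and are not tests.

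Since TPM is per length, levels can be set side by side. In control cells the order from the highest mean was RELA, NFKBIA, NFKB1, NFKBIB, NFKBIE, NFKB2, NFKBIZ, RELB, REL and TNFAIP3, from 72.6 to 3.17 TPM. Neighbours in that order were apart in every library except NFKBIZ and RELB, and RELB and REL, whose values overlapped. In mimic cells NFKBIA (89.8 ± 6.67 TPM, mean ± SD, n = 3) stood above RELA (73.1 ± 2.54 TPM), with no overlap between the values. NFKBIZ (19.9 ± 1.04 TPM) moved from the seventh place to the fifth, where its values overlapped those of NFKBIE (19.7 ± 2.92 TPM). Mimic library 3 held the lowest mimic value of NFKBIA, NFKBIZ and REL and the highest of NFKB2, RELA, RELB, NFKBIB and NFKBIE.

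Ratios within a library do not change when a whole library is divided by a single factor, though quantile scaling can change them. The ratios were chosen after the levels were seen and carry no test. The ratio of NFKBIA to RELA in TPM was 0.854, 0.898 and 0.988 in control and 1.27, 1.33 and 1.09 in mimic libraries, so NFKBIA was below RELA in every control library and above it in every mimic library. The ratio of NFKBIZ to NFKB1 was 0.191, 0.191 and 0.267 in control and 0.467, 0.466 and 0.433 in mimic libraries. The ratio of NFKBIE to NFKBIB was 0.608, 0.578 and 0.535 in control and 0.445, 0.430 and 0.506 in mimic libraries. These too did not overlap, whereas the levels of NFKBIE alone did. Mimic library 3, where NFKBIE was inside the control range, held the highest NFKBIB value. The separation thus depends on the divisor chosen and is no further evidence of a decrease of NFKBIE. The 5 subunits summed to 152.0 ± 5.76 TPM in control cells against 150.6 ± 4.35 TPM, and the 5 inhibitors to 144.6 ± 7.06 and 176.8 ± 5.95 TPM (mean ± SD, n = 3 each). Most of the summed rise came from NFKBIA, with means of 66.3 and 89.8 TPM, which did not pass. The means of NFKBIZ were 9.91 and 19.9 TPM, of NFKBIB 41.4 and 42.7 TPM and of TNFAIP3 3.17 and 4.76 TPM. NFKBIE went the other way, from 23.8 to 19.7 TPM.

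**Figure D3:**
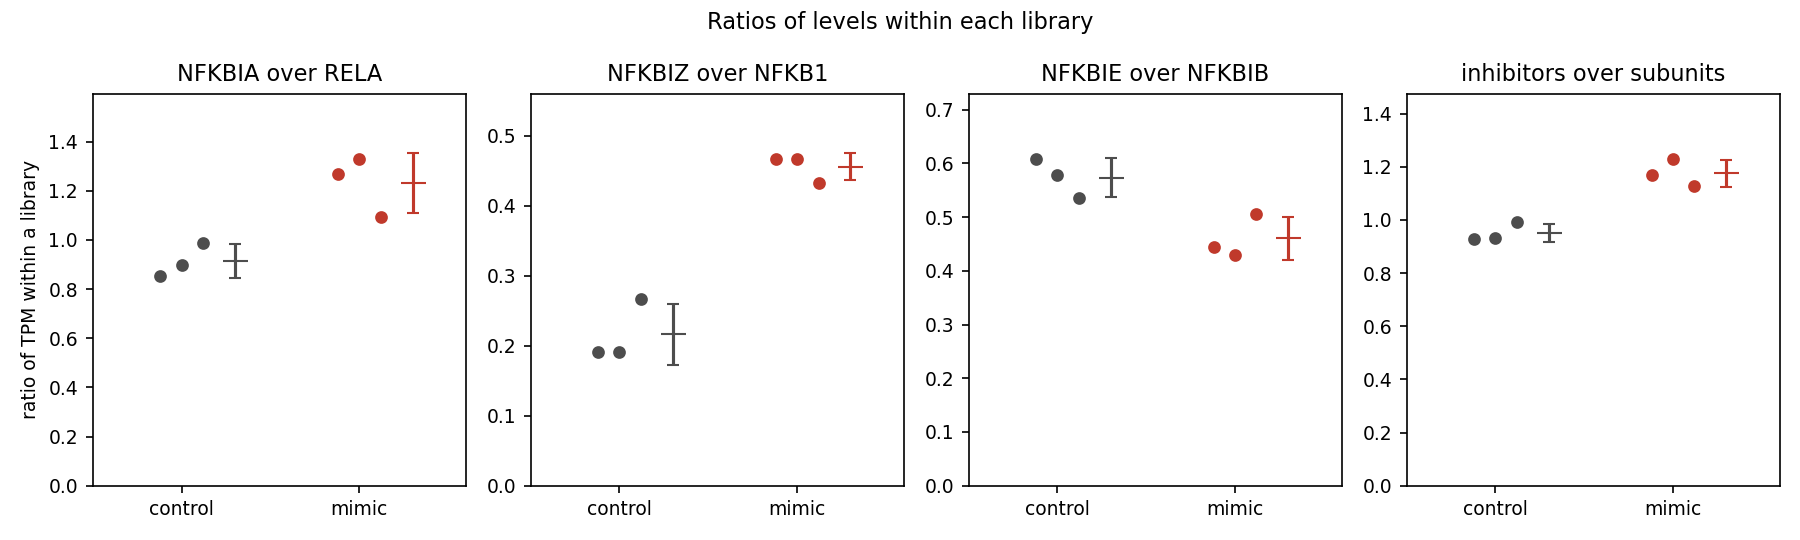
Ratios of TPM values within each library (vertical axes, each from 0) for 3 control (grey) and 3 mimic (red) libraries, replicates 1 to 3 from left to right, with mean ± SD beside the points. In each of the 4 panels the control and mimic libraries do not overlap. The ratios were chosen after the levels were seen, so this repeats the levels and is no test. The summed inhibitors over summed subunits run from 0.929 to 0.991 in control and from 1.13 to 1.23 in mimic libraries. NFKBIA, the most abundant inhibitor, gives most of the rise of the summed inhibitors.

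The 3 tested genes whose values over the 6 libraries lay nearest to those of NFKBIZ, by root mean square difference of centred log2(TPM + 1), were TXNIP (0.118), ZFP36 (0.141) and SPRY4 (0.155). TXNIP encodes a thioredoxin-binding protein, ZFP36 an mRNA decay factor and SPRY4 an inhibitor of growth factor signalling. This likeness is over 6 libraries of 2 groups and is mostly the difference between the groups. The 3′ UTRs also differed in the pentamer ATTTA, the core of AU-rich elements that mRNA decay factors bind. It was found in 6 of the 10 genes (25 copies in REL, 4 in TNFAIP3, 3 in NFKBIZ, 3 in NFKB1, 2 in NFKBIA and 1 in NFKB2) and in 74.5% of tested protein-coding genes, while RELA, RELB, NFKBIB and NFKBIE had 0. The median over genes was 2 copies. The 3 inhibitors that were higher in every mimic library had the pentamer, as had 3 subunits whose groups overlapped. The counts are not scaled to UTR length. That length was 9075 bases in REL, 708 in NFKB1 and 153 in NFKB2. It was 3156 bases in TNFAIP3, 1651 in NFKBIZ and 1075 in NFKBIA. Per base, each of these 3 subunits held more copies than each of the 3 inhibitors.

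The rest of the pathway was read from 4 lists by role, 87 genes in all, of which 86 were found and 79 tested. Limma with Benjamini-Hochberg adjustment called 1 as higher and 1 as lower and left 77 uncalled, around a median log2 fold change of -0.013. Before adjustment 7 of the 79 had p under 0.05 upward and 8 downward, against 3.05% and 7.64% of all tested genes. The groups lay apart for 9 above and 9 below, against 5.16% and 10.5%.

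Among 23 receptors and adaptors, TICAM1 fell and 22 did not pass, with a median of -0.04. TICAM1 encodes TRIF, the adaptor through which TLR3 and TLR4 reach NF-kB and interferon genes. It measured 22.6, 24.3 and 23.6 TPM in control and 14.9, 13.9 and 16.5 TPM in mimic libraries, each mimic library well below each control library (adjusted p = 0.0161, limma with Benjamini-Hochberg; log2 fold change -0.61 ± 0.08 SE). TICAM1 passed in 8 of 15 other settings, and its adjusted p was 0.0726, 0.0902 and 0.0886 without control library 1, 2 and 3 and 0.0809 without mimic library 1.
The tumour necrosis factor receptor TNFRSF1A measured 95.2 ± 3.05 TPM in control against 92.9 ± 3.93 TPM, the interleukin-1 receptor IL1R1 9.79 ± 1.03 and 8.54 ± 0.0912 TPM, and the lymphotoxin receptor LTBR 51.5 ± 0.598 and 51.2 ± 5.11 TPM (mean ± SD, n = 3 each). For these 3 receptors the groups overlapped. Downstream of the receptors, RIPK1 measured 41.4 ± 2.75 and 36.4 ± 0.755 TPM and TRAF2 15.2 ± 0.223 and 12.8 ± 1.12 TPM, in both cases with every mimic library below every control library but without passing (limma with Benjamini-Hochberg, adjusted p = 0.335 and 0.272). In the other direction, every mimic library lay above every control library for the receptor genes CD40, at 29.0 ± 1.30 and 34.9 ± 1.65 TPM, and TLR4, at 17.1 ± 0.976 and 19.9 ± 1.26 TPM, which also did not pass (adjusted p = 0.145 and 0.339, limma with Benjamini-Hochberg) and were named with their values in view. The ubiquitin ligase gene BIRC2 measured 67.2 ± 4.09 and 62.1 ± 7.95 TPM.

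Of 14 kinase and linear ubiquitin ligase (LUBAC) genes, 0 rose, 0 fell and the median was -0.03. None had an unadjusted p under 0.05, against 3.05% of all tested genes upward and 7.64% downward. The IkB kinase subunits overlapped between groups, with CHUK at 24.3 ± 1.83 and 24.8 ± 2.74 TPM, IKBKB at 16.5 ± 0.691 and 15.2 ± 0.655 TPM and IKBKG at 58.4 ± 4.08 and 57.5 ± 6.54 TPM (control first). MAP3K7, the kinase that activates them, measured 40.5 ± 2.44 and 39.5 ± 2.26 TPM, and MAP3K14, the kinase of the alternative pathway, 4.29 ± 0.398 and 3.56 ± 0.657 TPM (n = 3 each). Only for MAP3K14 of these 5 kinase genes did every mimic library lie below every control library, by a narrow gap. Over the whole list this held for 2 genes, MAP3K14 and TBK1, against 10.5% of all tested genes.

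Of 20 tested genes among 21 other regulators, 0 passed in either direction, with a median of 0.01. Before adjustment, p was under 0.05 for 0 with a higher level and for 3 with a lower one, against 3.05% and 7.64% of all tested genes. CYLD, a deubiquitinase that limits NF-kB, measured 8.73 ± 0.379 and 9.53 ± 0.608 TPM, TNIP1, a partner of A20, 64.4 ± 2.34 and 66.4 ± 1.95 TPM, and BCL3, another nuclear IkB protein, 14.8 ± 1.35 and 14.1 ± 1.44 TPM. Of these, CYLD lay above in every mimic library, without passing (adjusted p = 0.721, limma with Benjamini-Hochberg). ZC3H12A encodes Regnase-1, an RNase known to degrade NFKBIZ mRNA, and measured 5.92 ± 0.802 and 7.20 ± 0.887 TPM with overlapping groups. RC3H2 encodes Roquin-2, an RNA-binding protein that acts on some of the same transcripts. It was named after its values were seen, and measured 25.8, 29.0 and 30.2 TPM in control and 22.4, 23.5 and 21.5 TPM in mimic libraries. These did not overlap, and the log2 fold change of -0.32 (SE 0.07) did not pass (limma with Benjamini-Hochberg, adjusted p = 0.126). RC3H1, the other RC3H gene of the list, did not share this decrease. It measured 9.24, 9.99 and 11.4 TPM in control and 10.1, 11.9 and 8.71 TPM in mimic libraries, with overlapping groups. Besides RC3H2, 2 genes of the list had a lower level and p under 0.05 before adjustment, and were named for that. NFKBID, a nuclear IkB gene, measured 1.88 to 2.08 TPM in control and 0.884 to 1.48 TPM in mimic libraries. OTULIN, a deubiquitinase gene, measured 15.8 ± 0.670 and 13.9 ± 0.659 TPM. Both were below control in every mimic library and missed the threshold (adjusted p = 0.339 and 0.401, limma with Benjamini-Hochberg).

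Of 25 tested genes among 32 endothelial NF-kB targets, 1, CXCL2, rose and none of the other 24 was called. The median was 0.02 and the mean 0.15. CXCL2, a neutrophil chemokine gene, measured 5.70, 7.37 and 8.76 TPM in control and 19.1, 20.6 and 13.3 TPM in mimic libraries, with no overlap and with mimic library 3 the lowest of the mimic libraries (adjusted p = 0.0409, limma with Benjamini-Hochberg; log2 fold change 1.17 ± 0.18 SE). It passed in 6 of 15 other settings, and its adjusted p without 1 library was 0.132, 0.112 and 0.0639 for control libraries 1 to 3, 0.147 and 0.0636 for mimic libraries 1 and 2, and 0.00886 for mimic library 3.
The adhesion genes SELE, at 1.70 ± 0.593 and 2.22 ± 0.767 TPM, and ICAM1, at 7.46 ± 2.61 and 8.75 ± 1.86 TPM, overlapped between control and mimic cells. VCAM1 was under the filter, at 0.878 ± 0.581 and 0.697 ± 0.323 TPM. Of the cytokine genes, CXCL8 measured 31.1 ± 5.38 and 30.5 ± 1.98 TPM, IL6 5.26 ± 0.173 and 5.21 ± 0.201 TPM, and CCL2 123.1 ± 17.4 and 147.5 ± 21.5 TPM, and BIRC3, a survival gene, 0.929 ± 0.210 and 0.952 ± 0.117 TPM (n = 3 each). These 4 also overlapped.
The groups of IL1A, F3, CXCL3 and PTGS2, which the naming rule leaves out and which were picked with their values in view, did not overlap. IL1A, an interleukin-1 gene, measured 2.71 ± 0.721 and 5.68 ± 1.23 TPM, F3, which encodes tissue factor, 2.37 ± 0.389 and 4.54 ± 0.806 TPM, CXCL3 1.77 ± 0.630 and 3.97 ± 0.556 TPM, and PTGS2, which encodes a cyclooxygenase, 16.4 ± 2.15 and 21.9 ± 1.13 TPM (control first, n = 3 each). Their adjusted p by limma with Benjamini-Hochberg was 0.0893, 0.0868, 0.101 and 0.143, so none passed. With CXCL2 these are the 5 targets that had p under 0.05 upward before adjustment, against 3.05% of all tested genes. Downward, 2 of the 25 had it, CSF3 and PTX3, against 7.64% of all tested genes, and both were named for that. CSF3, a granulocyte growth factor gene, measured 8.36 ± 1.30 and 5.94 ± 1.52 TPM. PTX3, which encodes a pentraxin, measured 410.8 ± 43.5 and 348.7 ± 18.8 TPM. The groups of CSF3 and PTX3 overlapped (adjusted p = 0.352 and 0.334, limma with Benjamini-Hochberg).

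**Figure D4:**
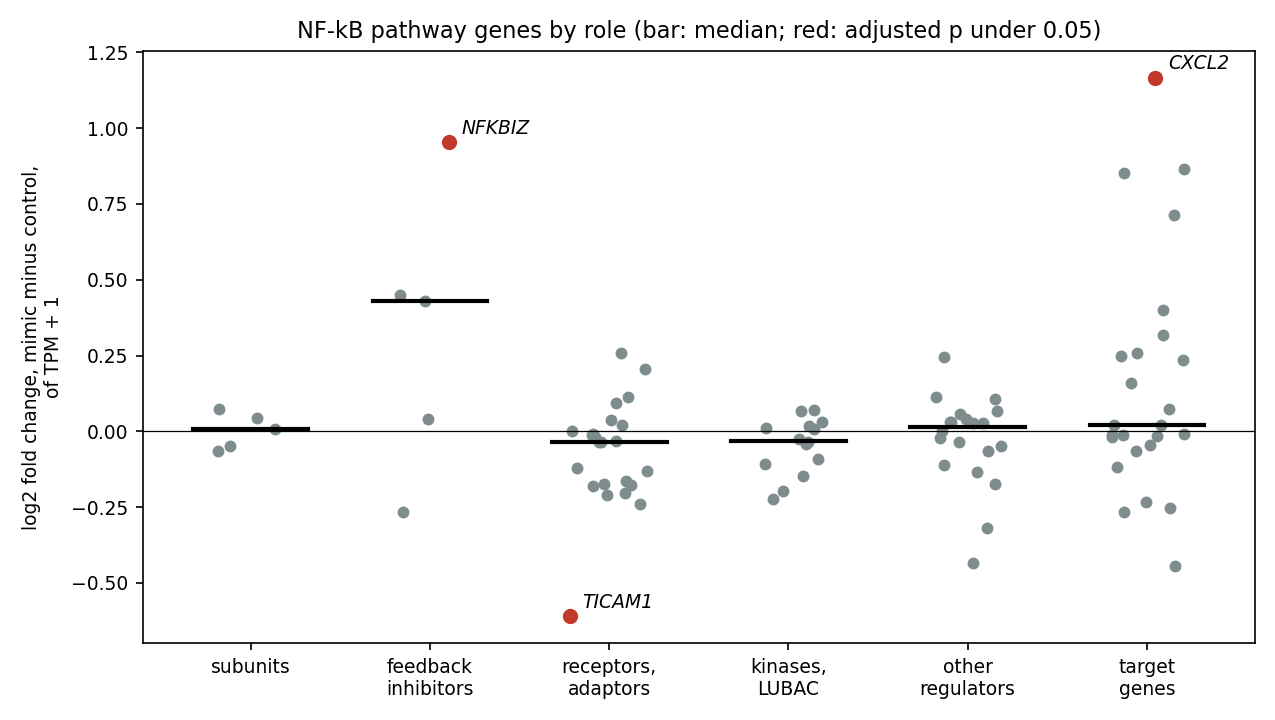
Log2 fold change of TPM + 1, mimic minus control (vertical axis), of the tested genes of each role, 1 point per gene with a bar at the median; points are spread sideways for visibility, and BIRC3, BCL3 and TRAF1 stand in 2 lists. Points past an adjusted p of 0.05 are red: NFKBIZ at 0.95, CXCL2 at 1.17 and TICAM1 at -0.61. The medians lie between -0.04 and 0.04 except for the feedback inhibitors at 0.43. That median of 5 genes is the value of NFKBIA, which did not pass, and the 5 ran from -0.27 to 0.95.

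**Figure D5:**
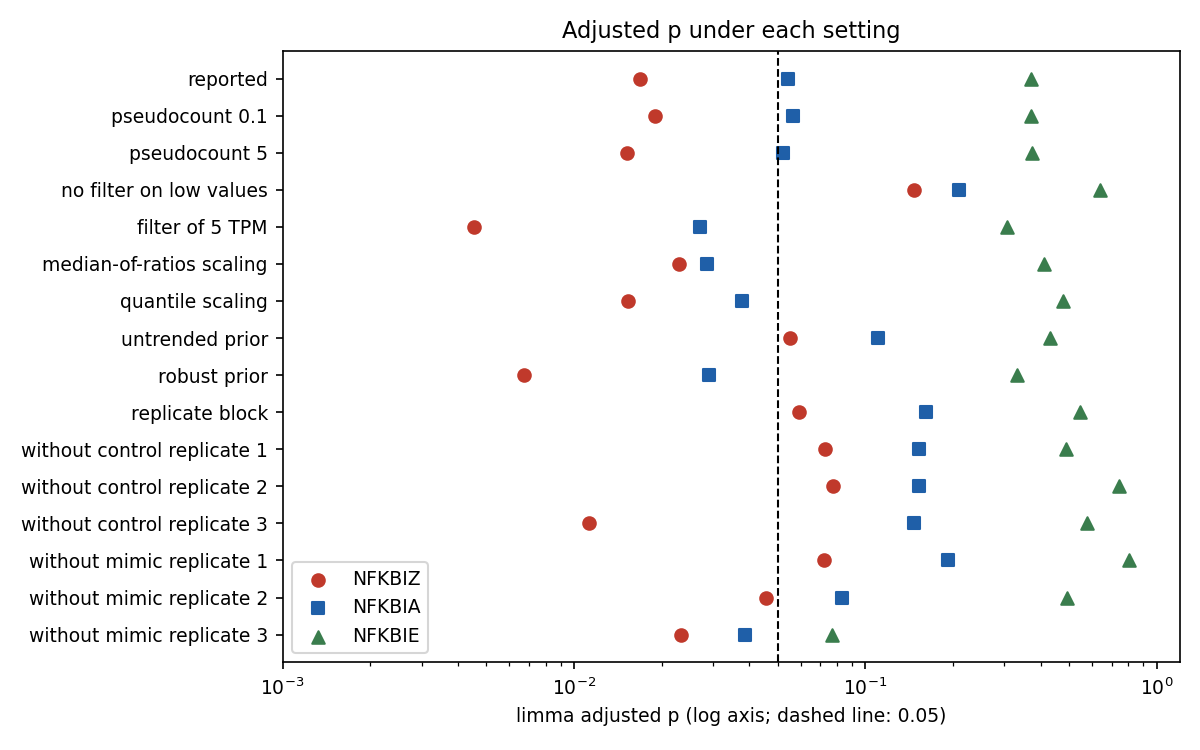
Limma adjusted p (horizontal log axis, dashed line at 0.05) of NFKBIZ, NFKBIA and NFKBIE under the reported setting and 15 others. NFKBIZ lies left of the line in 9 of the 15, NFKBIA in 5 and NFKBIE in 0.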

How the data were processed

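Each library has its own deposited table, in which 45372 Ensembl gene IDs carry TPM values computed by the authors, as the file headers say. The submitters' processing notes name hg38 and GRCh38.p13. The aligner, counting program, annotation, use of strand and filters were not given in the sources used here. Without strand, reads of overlapping genes cannot be told apart. Symbols were found for 45102 IDs, and SOD2, a listed target, was not matched and is not analysed here. Positions, exon lengths and transcripts came from GENCODE 29 (GRCh38).

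The 13680 genes reaching 1 TPM in 3 or more libraries were fitted with limma 3.58.1 in R 4.3.3 on log2(TPM + 1), with group as the only term and a trended prior, and Benjamini-Hochberg adjusted p-values were read at a threshold of 0.05. All 10 members passed the filter. Fold changes on this scale understate changes of low genes. The script was checked on simulated data. Depth was estimated from whole-read steps and has no molecular identifiers behind it. Motifs were counted on the longest annotated 3′ UTR of at least 30 bases. Alternatives were other pseudocounts, filters, scalings and priors, a replicate block, and leaving out each library.

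Members and lists were chosen with earlier results of these data known. Named pathway genes were those past the threshold, a list of 24 by role, and others picked with their values in view. Not every gene with a like pattern was named. The 3 nearest profiles were named for each member that passed. Python 3.11.15 was used.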

Additional observations from a re-analysis of the deposited data

How the results depend on the processing

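The count of 1 member higher was 2 (NFKBIZ and NFKBIA) with a filter of 5 TPM, median-of-ratios scaling, quantile scaling and a robust prior, was 0 with no filter and with an untrended prior, and ran from 0 to 2 when 1 library was left out. It was 0 without control library 1 or 2 or mimic library 1 and 2 without mimic library 3. The count of members lower was 0 in all 15 other settings. TNFAIP3 is not tested with a filter of 5 TPM. Pathway genes higher numbered 0 with no filter, an untrended prior and a robust prior, and 0 to 1 with 1 library left out. Pathway genes lower numbered 0 with no filter and an untrended prior, and 0 to 1 with 1 library left out. The sign turned for 4 genes near 0 that passed in no setting: leaving out 1 library, the log2 fold change ran from -0.018 to 0.037 for RELA, from -0.073 to 0.118 for RELB, from -0.048 to 0.188 for REL and from -0.0073 to 0.077 for NFKBIB. The cause was not tested. Scaling moved the median of all genes from -0.017 to 0.0021 (median-of-ratios) and 0.0035 (quantile).

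With the replicate number as a block, members higher numbered 0, with an adjusted p of 0.0591 for NFKBIZ and 0.161 for NFKBIA, and pathway genes higher and lower numbered 0 and 0. Same-numbered libraries deviated from their group means with correlations across genes of 0.031, -0.087 and -0.112. For libraries with different numbers these ran from -0.031 to 0.114. Deviations within a group of 3 are tied to each other, so these values cannot settle whether the numbers pair the libraries. Of 9 neighbouring pairs in the order of levels over 6 libraries, 3 did not overlap, and 3 or 4 when 1 library was left out. Across all genes the counts of 18 higher and 41 lower became 9 and 5 under the block, 10 and 10 under an untrended prior, 37 and 82 under a robust one, 6 and 5 when low values were kept, 36 and 79 when the filter was 5 TPM, 33 and 54 under median-of-ratios and 34 and 42 under quantile scaling. When 1 library was left out they were 7 and 10, 8 and 5, and 12 and 7 for control libraries 1 to 3, and 3 and 6, 17 and 27, and 20 and 25 for mimic libraries 1 to 3.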
